A study of Homo sapiens with 6 samples.

Results

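FAM111A, FAM111B, NOLC1 and TUBB were examined as 4 of the 19970 protein-coding genes on chromosomes with peaks, because their promoters hold some of the highest E2F1 peaks of MDA-MB-231 cells. FAM111A, NOLC1 and TUBB were selected on the fold enrichment of E2F1, so their E2F1 values are a description and were not tested. FAM111B was taken as the paralogue of FAM111A, and its peak was known from the same lists. Promoters reached 1000 bp to each side of every annotated transcription start site (TSS).

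Chromatin immunoprecipitation with sequencing (ChIP-seq) was done in MDA-MB-231 cells, an established human line of triple-negative breast cancer. E2F1 was immunoprecipitated from untreated cells and from cells exposed for 72 h to DMSO, the vehicle, or to 1 µM GSK126, which inhibits EZH2, a histone methyltransferase. H3K27me3, the repressive histone mark that EZH2 deposits, was profiled in cells transduced for 24 h with lentivirus for either control shRNA or the hairpin directed at E2F1 (shE2F1) and selected for 72 h with 2 µg/ml puromycin. Each of these 5 groups has 1 library and no replicates, so no difference between conditions carries a test, and all intervals cover counting error only.

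E2F1 is a transcription factor that activates genes for DNA replication and cell division. FAM111A and FAM111B are related serine proteases encoded side by side. FAM111A binds PCNA, the sliding clamp of replication forks, and acts on proteins crosslinked to DNA. NOLC1 is a nucleolar phosphoprotein that accompanies small nucleolar ribonucleoproteins (snoRNPs), the particles that modify ribosomal RNA. TUBB encodes a beta-tubulin, a building block of microtubules and the mitotic spindle.

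The untreated list holds 1056 E2F1 peaks, the DMSO list 15703 and the GSK126 list 14276. The control shRNA and shE2F1 lists hold 123957 and 135683 H3K27me3 peaks. The genome-wide background, in fragments expected at a base, amounted to 0.668 for untreated, 1.82 for DMSO and 1.70 for GSK126 cells. As a check of the H3K27me3 lists, promoter peaks were counted at HOXA9, HOXB9, HOXC9 and HOXD9, developmental genes that often carry the mark, and at the housekeeping genes ACTB and GAPDH. Of the 4 HOX genes, 1 had a peak in control shRNA and 0 in shE2F1, whereas ACTB had a peak in both lists and GAPDH in shE2F1. At these few genes the H3K27me3 lists therefore went against the usual pattern of the mark, and the values from them are given as listed peaks. The expression of these genes was not examined, and the check does not extend to the rest of the lists. The level of E2F1 after knockdown was not analysed here.

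The DNA under the strongest E2F1 summits is shown because each of the 4 summits lay within 11 bp of an E2F motif in untreated cells. All sequences are the plus strand of hg38, along which the 4 genes are transcribed. Capitals mark the E2F motif, TTCCCGC or TTCGCGC or TTGCCGC or TTGGCGC on either strand, so a match on the minus strand appears as its reverse complement. Each of the 2 matches at FAM111A is given with its flanks, at chr11:59144787-59144816 and chr11:59144833-59144862, both in an untranslated exon.
FAM111A, first match: acctgctccgtTTCCCGCccagctggagct
FAM111A, second match: ctcaaatacgaGCGGGAActgcgttgagcg
The FAM111B sequence at chr11:59106662-59106832 begins in a noncoding exon of ENSG00000289635, lies upstream of FAM111B and holds both of its matches.
FAM111B: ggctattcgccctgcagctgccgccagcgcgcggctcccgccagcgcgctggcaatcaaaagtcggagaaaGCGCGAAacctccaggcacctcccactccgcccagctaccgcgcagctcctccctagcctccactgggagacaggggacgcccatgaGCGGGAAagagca
The NOLC1 sequence at chr10:102152043-102152163 lies upstream of the gene and holds 3 matches.
NOLC1: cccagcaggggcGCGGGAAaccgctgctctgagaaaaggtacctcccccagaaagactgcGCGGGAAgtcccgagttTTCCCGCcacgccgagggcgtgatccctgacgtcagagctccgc
The 2 matches at TUBB are in an untranslated exon, at chr6:30717537-30717566 next to the summit and at chr6:30717461-30717490 upstream of it.
TUBB, match at the summit: ccaccacccacTTCCCGCgcagttccaaac
TUBB, upstream match: aaggccgccgtGCGCCAAcagaataatgca

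FAM111A (ENSG00000166801.17, chr11:59142748-59155039) had the highest fold of the untreated list. Its strongest peak, chr11:59144618-59145067, reached 44.6-fold in untreated, 37.5-fold in DMSO-treated and 69.5-fold in GSK126-treated cells. The fold is the authors' ratio of fragments to local background at the summit, with a pseudocount of 1 added to each. The pseudocount lowers the fold most where the local background is low. Under this summit the background was 0.905 fragments in untreated cells, 6.63 with DMSO and 6.14 with GSK126. By fold the peak ranked 1 of 1056, 22 of 15703 and 21 of 14276 in these lists, and by −log10 q it ranked 3, 6 and 5. The summit was covered by 84 fragments in untreated cells (exact Poisson 95% interval 67.0 to 104), 285 with DMSO (253 to 320) and 495 with GSK126 (452 to 541).

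The FAM111A summit was not at the MANE Select start, that of the transcript chosen as the reference for the gene. It lay 3, 6 and 9 bp past the start of transcript FAM111A-208 in the untreated, DMSO and GSK126 lists. From the MANE Select start it was 1946, 1949 and 1952 bp downstream. Which start the cells use was not examined. FAM111A has 13 distinct TSSs over 18 transcripts. The first promoter had no untreated peak. In DMSO it carried a weaker peak of 6.07-fold at chr11:59142488-59143175, with 42 fragments (30.3 to 56.8), and in GSK126 one of 8.97-fold at chr11:59142287-59143688, with 63 fragments (48.4 to 80.6). These ranked 3389 and 4173 by fold, lay within 1 kb of the TSSs of FAM111A-DT and ENSG00000255381 as well, and had 0 E2F motifs within 100 bp of the summit. The RefSeq promoter table matched 2 of the 4 genes, FAM111A and TUBB. Of the 2 FAM111A promoters in it (GRCh38.p14, windows of 300 bp around a start), the downstream one at chr11:59144612-59144911 held the strongest summit of all 3 lists and both motifs. The upstream one held 0 motifs.

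FAM111B (ENSG00000189057.11, chr11:59107185-59127412) had 1 promoter peak in each E2F1 list. The peak stood at 26.98-fold without treatment, 49.0-fold with DMSO and 90.3-fold with GSK126, ranking 11, 5 and 4. By −log10 q the peak ranked 25, 30 and 32. Its summit held 44 fragments without treatment (32.0 to 59.1), 163 with DMSO (139 to 190) and 275 with GSK126 (243 to 309). FAM111B therefore had the highest fold of the 4 genes in DMSO and GSK126, and the fewest summit fragments of the 4 in every list.

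The FAM111B summit lay 438, 454 and 444 bp upstream of the first start, FAM111B-202, in untreated, DMSO and GSK126 cells. The untreated summit was 7 bp from the start of ENSG00000289635. Which of these starts the E2F1 signal belongs to cannot be told apart from a peak list. The peak was the widest of the 4 in each list, at 837, 1939 and 1984 bp. It extended past the FAM111B-202 start in each, to positions 59107265, 59108176 and 59108103. The untreated summit of the strongest FAM111A peak was 17390 bp past the other end of FAM111B. A further peak upstream of FAM111B, chr11:59101925-59102664, was listed only in GSK126, at 7.19-fold and 4797 bp from its summit to the gene.

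NOLC1 (ENSG00000166197.17, chr10:102152176-102163871) had a single promoter peak in each E2F1 list, with the steadiest summit. The summit stood at 102152103 in untreated cells and at 102152102 in DMSO and GSK126, 73, 74 and 74 bp upstream of the first start, NOLC1-202. The peak stood at 35.7-fold without treatment, 26.4-fold with DMSO and 43.4-fold with GSK126, ranking 4 of 1056, 106 of 15703 and 124 of 14276. By −log10 q the ranks were 6, 21 and 29. The summit was covered by 67 fragments in untreated cells (51.9 to 85.1), 244 with DMSO (214 to 277) and 375 with GSK126 (338 to 415). The local background was 1.36 times the genome-wide background in the untreated list but 4.56 times in DMSO and 4.51 times in GSK126. The DMSO and GSK126 lists are also much longer, and what lowered the fold rank was not tested.

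TUBB (ENSG00000196230.14, chr6:30717435-30725538) had its strongest peak at a promoter shared with another gene. The peak stood at 37.6-fold without treatment, 46.6-fold with DMSO and 75.5-fold with GSK126, ranking 3, 8 and 10. By −log10 q the peak ranked 2, 2 and 3, the highest ranks of the 4 genes. The summit was covered by 98 fragments in untreated cells (79.6 to 119), 329 with DMSO (294 to 367) and 538 with GSK126 (493 to 585), more than at the other three genes in each list.

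The TUBB summit was 122, 120 and 130 bp past the start of TUBB-211 and 2795, 2797 and 2787 bp upstream of the MANE Select start of TUBB. The start of MDC1, a DNA damage checkpoint mediator transcribed in the opposite direction, was nearer, at 110 bp from the untreated summit. The label of this peak as a TUBB promoter thus rests on 1 of the 7 TUBB transcripts, and the signal of TUBB and MDC1 cannot be told apart. Neither of the 2 RefSeq promoters of TUBB held the strongest summit.

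The MANE Select start of TUBB carried a weaker peak in all 3 lists. In untreated cells it was 6.68-fold at chr6:30720170-30720387, with 35 fragments (24.4 to 48.7) and a summit 82 bp upstream of the start. A separate untreated peak of 8.79-fold at chr6:30721398-30721617, with 22 fragments (13.8 to 33.3), lay 69 bp upstream of TUBB-206. In DMSO and GSK126 a single peak spanned both places, of 10.3-fold over chr6:30720023-30721799 and 15.4-fold over chr6:30719885-30722034. These weaker peaks ranked 705 and 450 in untreated cells, 1114 with DMSO and 1493 with GSK126. In each list the 4 genes together had 6 promoter peaks, and none lay over a gene body outside a promoter.

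**Figure D1:**
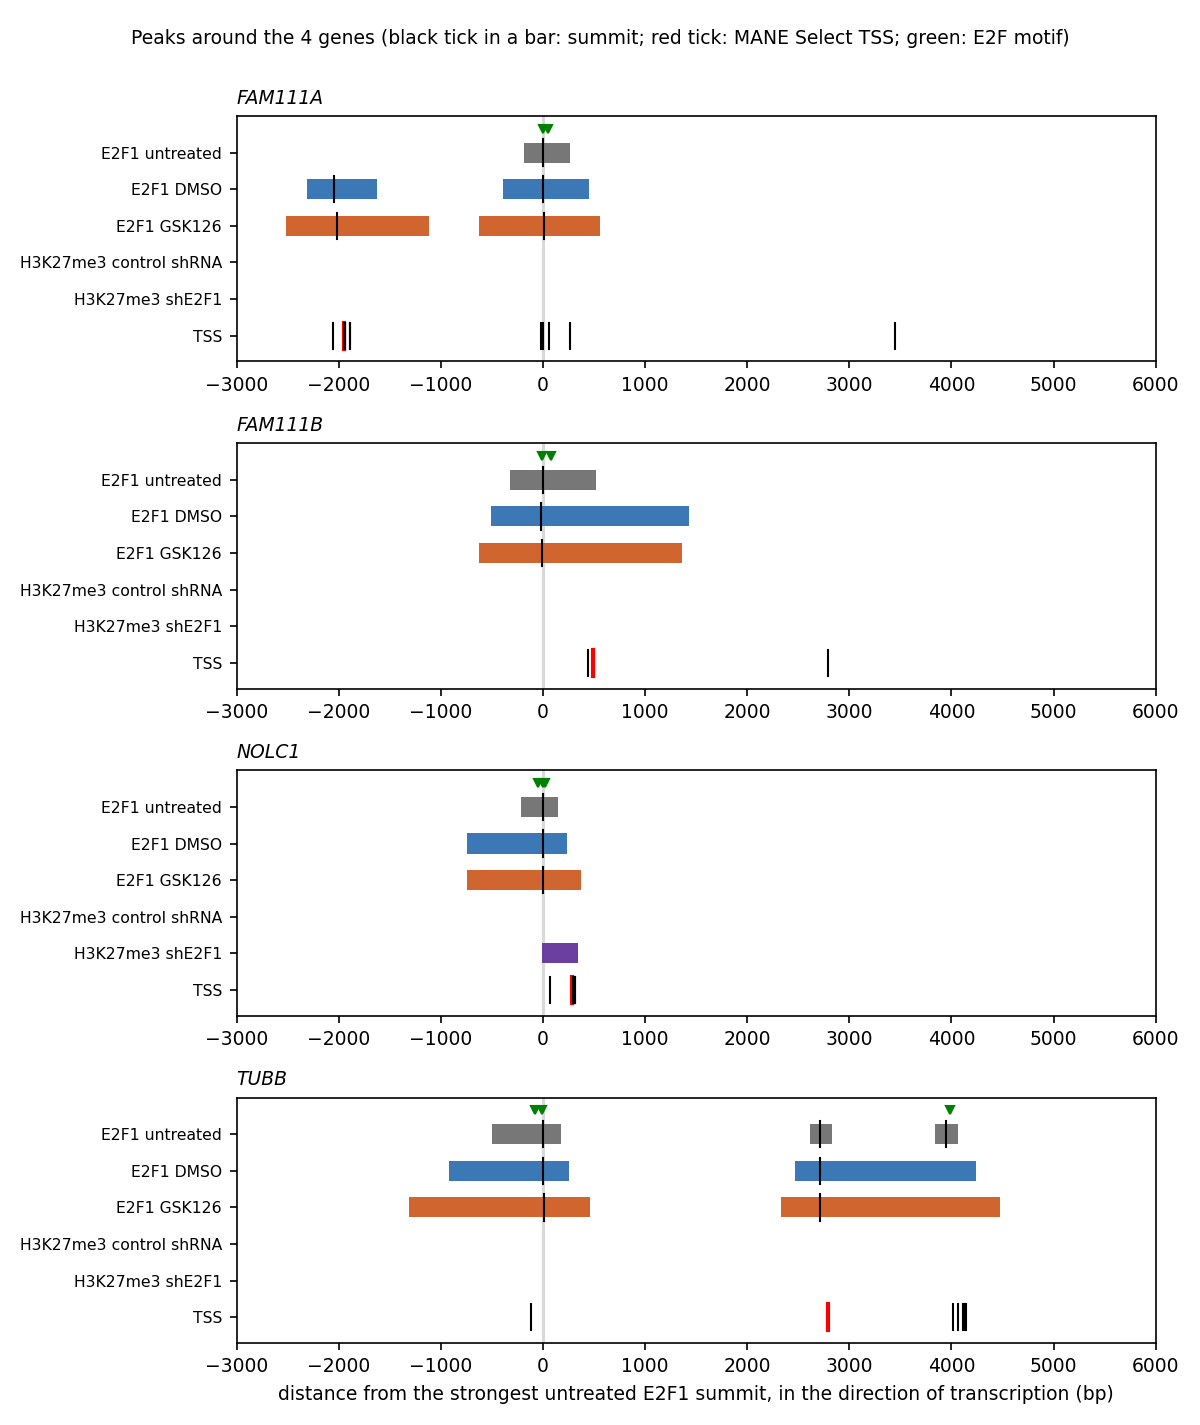
Extents of the listed peaks around each gene, with the distance from the strongest untreated E2F1 summit in bp on the x axis and the 5 lists and the annotated TSSs as rows (black tick in a bar, summit; red tick, MANE Select start; green triangle, E2F motif). The strongest E2F1 peaks of the 3 libraries stack on one position at each gene, weaker ones stand apart at FAM111A and TUBB, the strongest peaks of FAM111A and TUBB stand away from the red start, and a single H3K27me3 peak appears, at NOLC1 in shE2F1.

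All 4 genes had a promoter peak in each of the 3 E2F1 lists, where the share of all protein-coding genes with a promoter peak was 5.85% without treatment, 33.5% with DMSO and 51.5% with GSK126. Nothing is read from this count, since E2F1 signal chose the genes. Of all untreated peaks, 11 reached at least the fold of FAM111B, and the next one below stood at 25.4-fold. The others of these 11 were nearest to CDKN2D, a cell cycle inhibitor (41.7-fold), the histone gene H2BC17 (32.3), CENPK, a kinetochore protein (31.8), EZH2 (31.3), GORASP2, a Golgi stacking protein (31.2), ENSG00000288728 (28.3) and KIF15, a spindle motor (27.5). The start of H2BC17 was 1126 bp from the summit, beyond the promoter limit of 1000 bp. The strongest promoter peak of HMGB2 had the same fold as the ENSG00000288728 peak in all 3 lists.

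**Figure D2:**
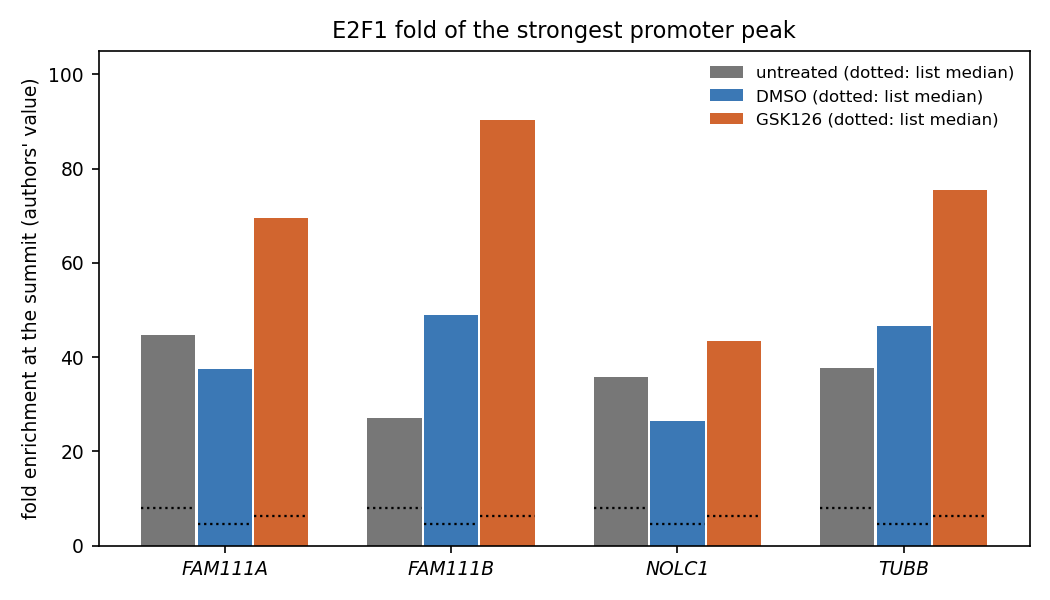
Fold enrichment of E2F1 (y axis, authors' value at the summit) at the strongest promoter peak of each gene in the untreated, DMSO and GSK126 libraries, with dotted lines at the list medians of 8.07, 4.57 and 6.33. FAM111A is highest in untreated cells at 44.6, and FAM111B is highest in DMSO and GSK126 at 49.0 and 90.3.

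The order of the 4 genes depended on the scale. By summit fragments divided by the genome-wide background of each library, the order was TUBB, FAM111A, NOLC1 and FAM111B in every list. In untreated cells these levels were 147 (119 to 179), 126 (100 to 156), 100 (77.8 to 127) and 65.9 (47.9 to 88.5), and the intervals of neighbours overlapped. In DMSO they were 181 (162 to 202), 157 (139 to 176), 134 (118 to 152) and 89.6 (76.4 to 104), where FAM111B stood below NOLC1 with intervals that did not overlap. In GSK126 they were 316 (290 to 344), 291 (266 to 318), 221 (199 to 244) and 162 (143 to 182), so that only the intervals of TUBB and FAM111A overlapped. By fold, FAM111A led in untreated cells and FAM111B in the other lists. The local background under FAM111B was 1.00, 1.29 and 1.21 times the genome-wide one in untreated, DMSO and GSK126 cells, and that under FAM111A was 1.36, 3.65 and 3.61 times.

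**Figure D3:**
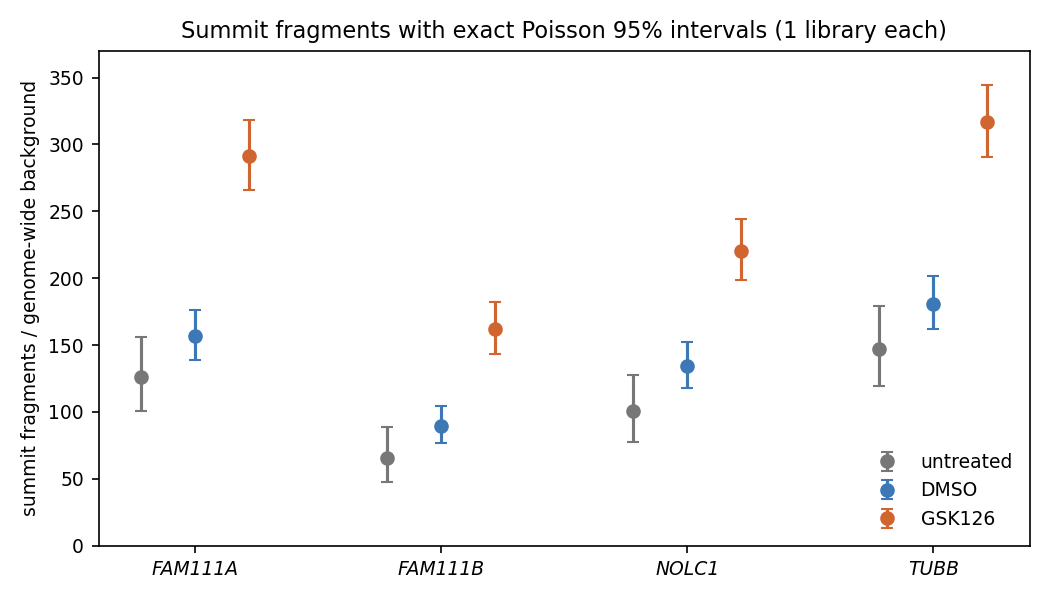
Summit fragments at the strongest E2F1 peak of each gene divided by the genome-wide background of the library (y axis), with exact Poisson 95% intervals as error bars and 1 library per colour. TUBB is highest and FAM111B lowest in each of the 3 libraries.

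Fold and fragments also disagreed on DMSO against untreated cells. The log2 ratio of fold, DMSO over untreated, was −0.25 at FAM111A, 0.86 at FAM111B, −0.44 at NOLC1 and 0.31 at TUBB. The log2 ratio of fragments over the genome-wide background was 0.32 (exact binomial 95% interval −0.04 to 0.69) at FAM111A, 0.44 (−0.04 to 0.96) at FAM111B, 0.42 (0.02 to 0.83) at NOLC1 and 0.30 (−0.03 to 0.64) at TUBB. FAM111A and NOLC1 were thus lower in DMSO by fold and higher by fragments, and on the fragment scale 3 of the 4 intervals held 0. The fold uses the local background and the pseudocount of 1, and the fragment scale uses neither. At the 4 summits the local background was 0.668 to 1.63 fragments in untreated cells and 2.35 to 8.29 in DMSO. The pseudocount therefore weighs more on the untreated folds, and the fold ratios are not ratios of fragments to local background.

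All 4 genes had higher E2F1 values in GSK126 than in DMSO. As log2 of GSK126 over DMSO, the fold ratio was 0.89 at FAM111A, 0.88 at FAM111B, 0.72 at NOLC1 and 0.70 at TUBB. On the fragment scale the ratios were 0.89 (0.68 to 1.11), 0.85 (0.57 to 1.14), 0.72 (0.48 to 0.96) and 0.81 (0.61 to 1.01). Over the 7385 DMSO peaks with a GSK126 overlap, 93.3% had the higher fold in GSK126, the median log2 ratio was 0.70 and the range from the 5% to the 95% quantile ran from −0.08 to 1.30. The 4 genes lay inside this range and had the direction of most of these shared peaks.

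**Figure D4:**
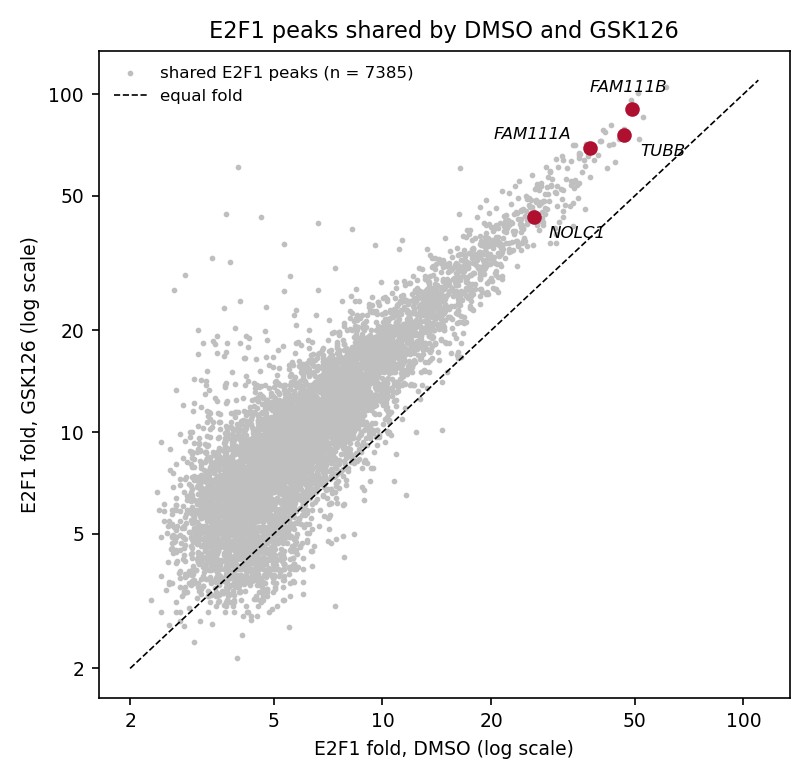
E2F1 fold in GSK126 against DMSO for the 7385 shared peaks (grey, both axes on a log scale), with the strongest peaks of the 4 genes in red and the line of equal fold dashed. The red points sit at the upper end of the cloud and within its band above the line.

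The summits kept their place between libraries. Over the 3 lists the summit moved by 6 bp at FAM111A, 16 bp at FAM111B, 1 bp at NOLC1 and 10 bp at TUBB, against a median of 38 bp over the 1016 peaks that all 3 lists shared. The peaks were wider than the median of their list in every case, from 1.19 times at NOLC1 in untreated cells to 4.45 times at FAM111B in DMSO. At FAM111A the width was 450, 846 and 1192 bp in untreated, DMSO and GSK126 cells, at NOLC1 358, 978 and 1117 bp, and at TUBB 682, 1182 and 1773 bp. The median widths of the lists were 302, 436 and 618 bp. Over all peaks of these lists the median summit held 19, 17 and 30 fragments, fewer than at the 4 genes. No peaks of similar height were compared, so summit place and width are not set apart from peak height.

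The windows within 100 bp of the untreated summit held 2 E2F motifs at FAM111A, 2 at FAM111B, 3 at NOLC1 and 2 at TUBB. Of all untreated peaks 54.5% held at least 1, 12.7% at least 2 and 1.52% at least 3, and of windows at the TSSs of protein-coding genes 11.6% held at least 1. Over RefSeq promoters of 300 bp the share was 13.0%. The middle of the nearest match was 1 bp from the untreated summit at FAM111A, 11 bp at FAM111B, 3 bp at NOLC1 and 6 bp at TUBB, where the median over the 576 untreated peaks with a match was 17.0 bp. The word TTCCCGC occurred at all 4 genes and in 36.8% of untreated peaks, and it was singled out after the matches were seen. A match describes the letters of the window and is not a measured binding site. The shares are over untreated peaks of every height, so motif number and distance are not set apart from peak height either.

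NOLC1 was the gene with the densest set. Its 3 matches were all TTCCCGC, with middles 45 bp before, 3 bp after and 20 bp after the untreated summit. The first pair lay on the strand opposite to the gene and the last on the same strand. The nearest match at FAM111B was TTCGCGC, and the more distant match at TUBB was TTGGCGC. The longer motif, with a further T in front, was present 1 time at FAM111A, 2 times at FAM111B, 2 times at NOLC1 and 0 times at TUBB, with a share of 21.5% among untreated peaks and 2.67% among TSS windows.

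Other promoter elements differed between the genes. The CCAAT box, searched as CCAAT on both strands, occurred 2 times at FAM111A, in copies that overlap on opposite strands, 1 time at TUBB and 0 times at FAM111B and NOLC1, with a share of 31.5% in untreated peaks and 26.0% in TSS windows. TTTGAA, the cell cycle homology region bound by repressor complexes of cell cycle genes, occurred 1 time at FAM111A and at none of the other three, with shares of 11.3% and 7.42%. The GC box GGGCGG occurred 2 times at FAM111B and 1 time at each of the others, with shares of 69.3% and 46.9%, and the FAM111A copy overlapped its first E2F match. The GC content of the windows was 56.2% at FAM111A, 66.2% at FAM111B, 63.7% at NOLC1 and 62.2% at TUBB, against a median of 67.2% over untreated peaks (quartiles 62.2% to 72.1%). FAM111A was below the lower quartile and had 13 CpG dinucleotides, where the other three had 18 each and the median was 20.

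H3K27me3 was listed at 1 of the 4 genes. In control shRNA none had a peak at a promoter or over its body, where 27.1% of all protein-coding genes had a promoter peak. In shE2F1 NOLC1 alone had one, where 51.2% of all protein-coding genes did and 26.0% had a promoter peak in shE2F1 but not in control shRNA. Among the 1168 genes with an untreated E2F1 promoter peak these shares were 19.3% in control shRNA and 61.7% in shE2F1. With 4 genes, 0 and 1 are too few to set apart from these shares.

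The NOLC1 peak in shE2F1, chr10:102152096-102152444, was 349 bp wide and 3.84-fold, averaged over the peak. Its −log10 q was 6.15, which ranked 1282 of 135683 in the list and 1210 of the 15120 peaks at promoters, whose medians were 1.75 for −log10 q, 3.03 for fold and 703 bp for width. It was thus short, with a −log10 q above most of the list. It began 7 bp before the untreated E2F1 summit, covered 154 bp or 43.0% of the untreated E2F1 peak, and ended 55 bp past the MANE Select start. Within NOLC1 it covered 269 bp, which is 2.30% of the gene. Of the E2F1 peaks of the 4 genes, 0 of 6 overlapped a control shRNA peak and 1 of 6 an shE2F1 peak in each E2F1 list. Over all untreated E2F1 peaks the overlaps were 11.5% and 47.3%. They were 10.7% and 31.3% over all DMSO peaks, and 12.5% and 41.7% over all GSK126 peaks.

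The FAM111 genes and TUBB lay in stretches without H3K27me3 peaks. FAM111A and FAM111B shared 1 such stretch, of 55062 bp in control shRNA and 55710 bp in shE2F1. The nearest peaks were 2508 and 2848 bp downstream of FAM111A and 4701 and 5009 bp upstream of FAM111B, in control shRNA and shE2F1. The stretch around TUBB was 452907 bp long in control shRNA and 177018 bp in shE2F1, with the nearest peaks 204762 bp downstream and 44327 bp upstream. Around NOLC1 the control shRNA list was free of peaks over 104743 bp, and the nearest peak was 20894 bp downstream. Of all protein-coding genes 34.1% had a peak over the body in control shRNA and 56.8% in shE2F1, and the genes without one were a median of 29318 and 18248 bp from a peak.

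Genes that work with the members were counted from lists of 12. Among PCNA partners and factors of crosslink repair, the field of FAM111A, 7 of 12 had an untreated E2F1 promoter peak, 11 in DMSO and 11 in GSK126. These are 58.3%, 91.7% and 91.7%, beside 5.85%, 33.5% and 51.5% of all protein-coding genes. PCNA reached 24.7-fold without treatment, 42.4-fold with DMSO and 70.5-fold with GSK126, and the clamp loader subunits RFC4 and RFC2 reached 22.7 and 21.5 in untreated cells. The 7 genes with an untreated peak were PCNA, RFC1, RFC2, RFC4, FEN1, LIG1 and POLD3. SPRTN, a protease for crosslinked proteins, had no E2F1 peak in any list. TDP1 and TDP2, also of crosslink repair, had none in untreated cells, and neither had RFC3 and RFC5. TDP1 and TDP2 reached 3.50- and 3.76-fold in DMSO and 9.83- and 5.15-fold in GSK126. The untreated share therefore does not describe crosslink repair. The median untreated fold of the 7 was 17.4, against 8.28 over all protein-coding genes with a peak. For H3K27me3, 2 of 12 (16.7%) had a promoter peak in control shRNA and 6 (50.0%) in shE2F1, beside 27.1% and 51.2% of all protein-coding genes. With only peaks of −log10 q of at least 5, the shE2F1 count was 3.

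Among snoRNP proteins and other partners of NOLC1, 4 of 12 (33.3%) had an untreated E2F1 peak, 7 (58.3%) in DMSO and 11 (91.7%) in GSK126, beside the same shares of 5.85%, 33.5% and 51.5% of all genes. The box C/D snoRNP proteins NOP58 and NOP56 had the highest untreated folds of the list, 13.2 and 8.22, followed by DKC1, the pseudouridine synthase, at 5.77. NOP10 had none in any list. All were below NOLC1 in fold, but NOLC1 was chosen for a high fold, so nothing is read from this. H3K27me3 was listed at 0 of 12 in control shRNA, beside 27.1% of all genes, and at 7 of 12 (58.3%) in shE2F1, near the 51.2% of all genes. The shE2F1 count was 0 with only peaks of −log10 q of at least 5.

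Among the other tubulins, 1 of 12 (8.33%) had an untreated E2F1 peak and 5 (41.7%) one in DMSO, near the 5.85% and 33.5% of all genes, and 10 (83.3%) had one in GSK126, beside 51.5%. That 1 was the alpha-tubulin TUBA1B, at 11.5-fold without treatment, 26.6-fold with DMSO and 48.1-fold with GSK126. TUBB1, the beta-tubulin of platelets, and TUBB4A, a neuronal beta-tubulin, had no E2F1 peak in any list. H3K27me3 was listed at 2 of 12 (16.7%) in control shRNA and 6 of 12 (50.0%) in shE2F1, beside 27.1% and 51.2% of all genes, and both counts were 0 with only peaks of −log10 q of at least 5.

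**Figure D5:**
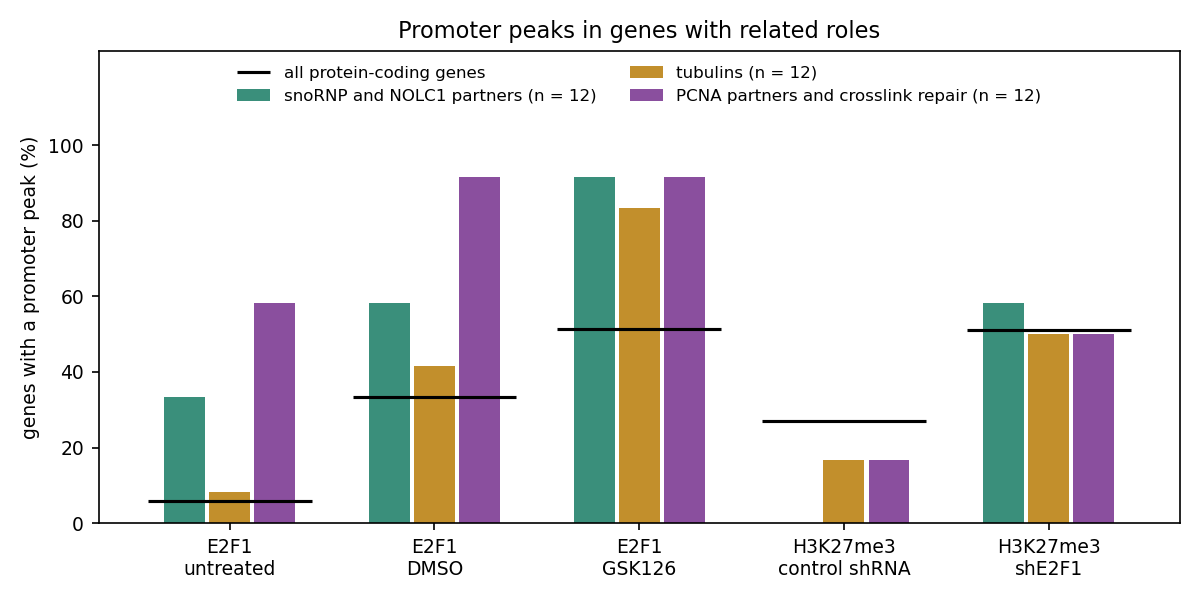
Share of genes with a promoter peak (y axis, %) in each of the 3 lists of 12 genes and each library, with a black line at the share of all protein-coding genes. In untreated cells the PCNA list stands at 58.3%, the snoRNP list at 33.3% and the tubulins at 8.33%, against 5.85% for all genes.

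The genes most like each member were found by the distance of log2 fold over the 3 E2F1 lists, among genes with promoter peaks in the same of the 5 lists and no peak in common with the member. FAM111A was closest to TUBB and MDC1, which share 1 peak, at a distance of 0.42, and then to HMGB2, a chromatin protein of dividing cells, at 0.74. FAM111B was closest to PCNA, at 0.43, and then to TUBB and MDC1, at 0.55. TUBB was closest to FAM111A and FAM111B, at 0.42 and 0.55, and then to PCNA at 0.63. NOLC1, matched among genes that also had a peak in shE2F1, was closest to GORASP2 at 0.52, the chromatin remodeller HELLS at 0.62 and E2F3 at 0.67. These are descriptions over 3 libraries. The distance uses the E2F1 fold on which FAM111A, NOLC1 and TUBB were chosen, so nothing is read from the closeness of members to each other.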

How the data were processed

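Per the study's methods, the authors removed adapters with cutadapt 4.5, aligned reads to GRCh38 with Bowtie2 2.5.2 and called peaks with MACS2 2.2.9.1, in broad mode for H3K27me3, and the control of each call is not given in the sources used here. The methods name micrococcal nuclease for histone marks and the labels name sonication. The deposited lists give each peak's fold enrichment, a ratio at the summit of a narrow peak and averaged over a broad one. The authors also deposited the p-value and q-value of each peak, both as −log10, a score that was not used, and the summit offset of narrow peaks. The depth of the libraries was not given, so fragments at the summit were solved from fold and p-value with the MACS2 pseudocount of 1, whole within a relative error of 2e-05 for all E2F1 peaks, and were tested on simulated data. The lowest background in a list was the genome-wide one.

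Of 6 samples, the input was not analysed here. Genes and TSSs came from GENCODE release 44 on hg38, a later annotation than the one the authors used, and sequences from hg38. E2F1 summits and any overlap of an H3K27me3 peak were assigned to promoters, and peaks overlapped from 1 bp. Intervals are exact at 95%. Python 3.11.15, numpy 2.4.6, pandas 2.3.3, scipy 1.17.1 and pysam 0.24.0 were used. The genes named were the members, genes with a TSS within 1 kb of their summits, the nearest genes of peaks at or above them by fold, the 3 genes of highest untreated fold and those without a peak in each list of related genes, and the 3 genes most like each member that have no peak in common with it. In the PCNA list, further genes were named to tell PCNA partners from crosslink repair. The members and gene lists were chosen with earlier results of these data known. Alternatives changed the peak threshold, promoter width, measure of strength, partner peak, overlap and motif.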

Additional observations from a re-analysis of the deposited data

How the results depend on the processing

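Of 57 alternative values, 52 kept their direction and stayed within counting error or, for counts, within 1.5 times, 5 moved and 0 reversed. Some of the 52 could not move, such as a wider promoter where all 4 genes already had a peak, or a stricter threshold where none had. The 52 are therefore not a measure of robustness. With an overlap of at least 50% of the E2F1 peak, 0 of the untreated E2F1 peaks of the 4 genes overlapped H3K27me3 in shE2F1, in place of 1, because the NOLC1 peak covers 43.0% of the E2F1 peak. With only peaks of −log10 q of at least 5, H3K27me3 in shE2F1 was listed at 0 of the 12 snoRNP genes in place of 7, at 0 of the 12 tubulins in place of 6 and at 3 of the 12 genes of the PCNA list in place of 6, and in control shRNA at 0 of the 12 tubulins in place of 2. In that setting 1626 shE2F1 peaks remained, which is 1.20% of the list. No paired analysis was possible because each group has 1 library. The precision of a summit is limited by the 44 to 98 fragments of the untreated library, and a single library cannot separate a treatment from the library.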

Other observations

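E2F1 peaks within 30000 bp of NOLC1 and TUBB lay at other genes and were absent from the untreated list. Upstream of NOLC1, PPRC1, a coactivator of mitochondrial genes, had a peak of 9.14-fold in DMSO and 18.5-fold in GSK126. Near TUBB, the peaks included those at PPP1R18 (13.1-fold in DMSO and 26.1-fold in GSK126), at NRM (5.90 and 7.15) and at the shared region of FLOT1 and IER3-AS1 (7.17 and 15.1). These genes were chosen after their values were seen.

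Of the 11 untreated E2F1 peaks at or above the fold of FAM111B, 3 overlapped an H3K27me3 peak in control shRNA and 6 in shE2F1, and 11 had the higher fold in GSK126 than in DMSO. Over all untreated E2F1 peaks the overlaps were 11.5% and 47.3%, and of the peaks shared by DMSO and GSK126 93.3% had the higher fold in GSK126. The counts of 6 and 11 are near these shares. The count of 3 of 11 in control shRNA stands above 11.5%, and this was not tested on so few peaks. The peaks of FAM111A, FAM111B and TUBB were among the 5 without an overlap in shE2F1, and that of NOLC1 was among the 6 with one.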
